A study of Rattus norvegicus with 12 samples.

Results

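The 35 genes described here encode the proteins that bring fatty acids into a cell and burn them in mitochondria, together with the regulators that set how much of this machinery is made. They were chosen by symbol as a pathway list, with 1 probe set for each gene, that of highest mean signal. All 35 were found among the 14217 named genes of the array, and 33 of them passed a filter on low signals. The other two, Ucp3 and Acot1, had mean signals of 0.51 and 0.27, where 1 is the median signal of an array, and were not tested.

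RNA was hybridised to 12 Affymetrix rat arrays. It came from primary cultures of ventricular cardiomyocytes of 1-day-old Wistar rats, set apart from cardiac fibroblasts by how readily the cells stick to a dish and held in OPTI-MEM for 24 h. The cells then received ethanol (vehicle), cortivazol (CVZ, a synthetic glucocorticoid), corticosterone (COR, the main natural glucocorticoid of rodents) or aldosterone (ALD, the natural mineralocorticoid) for 3 h, a time the study chose to catch early responses. These 4 groups had 2 arrays each, 1 in each of 2 experiments. Vehicle and the 3 ligands were also run in cells given RU486 beforehand at 10 µM, with 1 array each, in experiment 2 only. RU486 blocks the glucocorticoid receptor. The labels give no ligand doses, and any difference between ligands is therefore one between these conditions. Nor do the labels say whether the experiments were separate culture preparations. The experiment was fitted as a block, which takes out the shift between experiments that all groups share. The p-values thus reflect the spread then left between the 2 arrays of each group without RU486, pooled in large part across probe sets. That spread may be technical, and the single RU486 arrays add nothing to it.

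In heart muscle, long-chain fatty acids enter through Cd36, are bound by Fabp3, are joined to coenzyme A by acyl-CoA synthetases and cross the mitochondrial membranes as carnitine esters. The oxidation spiral then shortens them, and its first step hands electrons to the electron transfer flavoprotein. Fatty acids are the main fuel of the adult heart, and the machinery for using them is built up around birth under the nuclear receptors Ppara, Ppard and Esrra and their coactivator Ppargc1a (PGC-1alpha).

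The cultures carried the cardiomyocyte signature and large signals for most of the pathway. All 9 cardiomyocyte markers on the array had mean signals above the array median, from 79.4 for Myl7 to 319 for Myh6, and their summed signal was between 1652 and 2053 on the 12 arrays. Of the 35 genes, 21 had a mean signal above 20, another 9 lay between 5 and 20, and 5 were below 5. Markers of fat cells were low: Adipoq, Plin1, Cidec and Lep had mean signals of 0.28, 0.34, 0.059 and 0.10. Cfd and Adrb3 had 0.27 and 0.51. Fabp4 had 0.89 (0.33 to 2.12) and was called in 3 comparisons. Of the 4 brown fat markers, Ucp1, Dio2 and Zic1 had 0.23, 0.12 and 0.39, while Cidea, which also codes for a lipid droplet protein, had 31.2 (23.8 to 51.1) and was called in 5 comparisons. The summed signal of the 4 liver markers did not exceed 2.43. Other cells were present: the 8 fibroblast markers summed to 174 to 441 on the 12 arrays, with a mean of 70.1 for Col3a1. Hbb, an erythroid marker, had a mean of 53.9 (26.9 to 121). In RNA from whole cultures, fewer cells of a type and less RNA per cell cannot be told apart. Signals of different probe sets depend on the probes and are not set against each other as amounts of RNA.

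**Figure D1:**
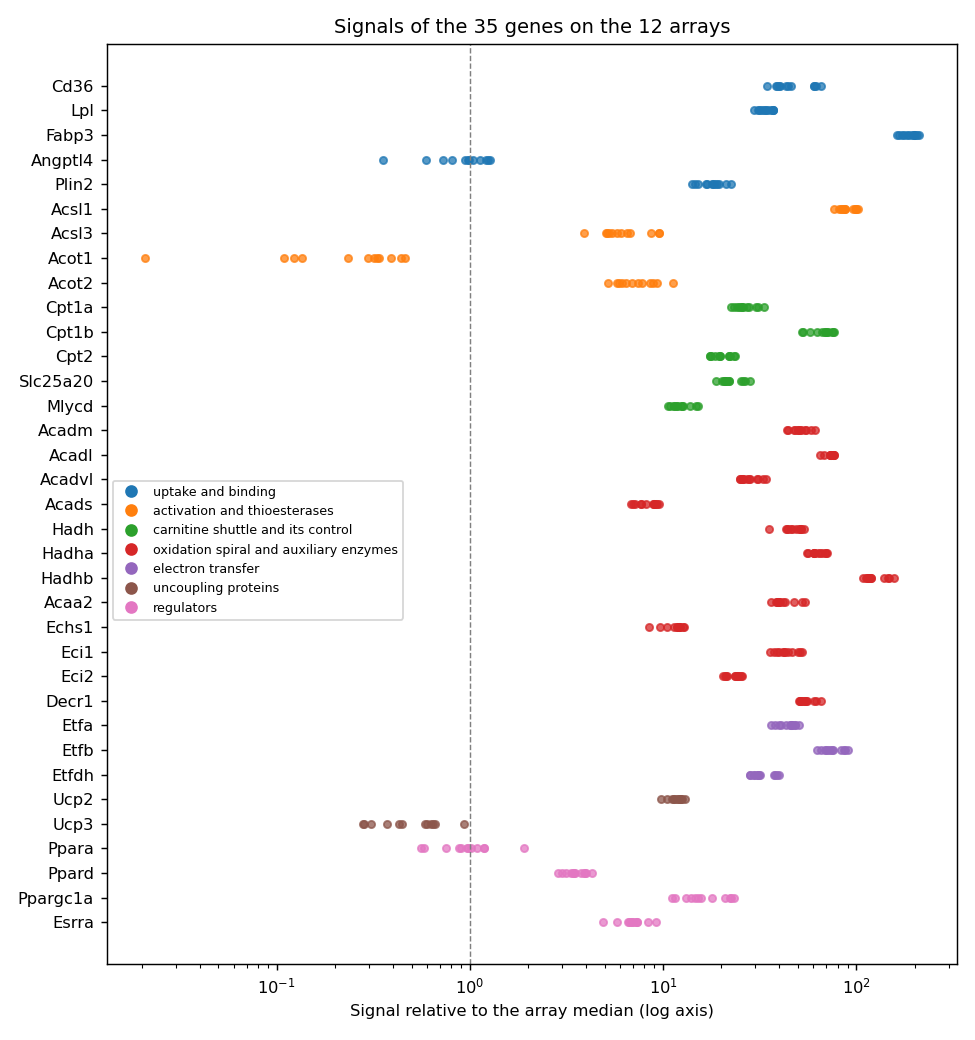
Signal of each of the 35 genes on each of the 12 arrays (points), relative to the array median, on a log axis and coloured by role. The dashed line marks the array median of 1, around which Angptl4 and Ppara lie and below which Ucp3 and Acot1 lie, while 30 of the genes have mean signals above 5.

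Ppargc1a rose with each of the 3 ligands, and the synthetase gene Acsl3 and the carnitine shuttle gene Cpt1a fell with CVZ. On the probe sets of highest mean signal, no other gene of the 33 passed the test against vehicle. Dimmer probe sets of Acsl1 and of Plin2 were also called lower with CVZ, as given below. Changes were fitted with limma on the log2 scale with the experiment as a block, and a change was called where its p, adjusted by Benjamini-Hochberg over the 18625 probe sets tested, was below 0.05. CVZ changed 3 of the 33 genes, where 7.96% of all probe sets tested were called. COR changed 1 (3.39% of all) and ALD 1 (0.95% of all), and the mean of the 3 ligands 1 (5.44% of all). The median log2 change of the 33 genes was 0.01 with CVZ, 0.03 with COR and 0.05 with ALD, beside 0.01, 0.01 and 0.02 over all probe sets. For CVZ and COR the share of the 33 genes was near that background. At an unadjusted p under 0.05 there were 8, 1 and 3 of the 33 genes with CVZ, COR and ALD, beside 3395, 2444 and 1704 of the 18625 probe sets. Quantile normalisation of the arrays raised the CVZ count from 1 up and 2 down to 1 up and 5 down, and the count for the mean of the 3 ligands from 1 up and 0 down to 1 up and 1 down. Without the experiment block the counts with CVZ, COR and ALD were 1, 0 and 0. The summed cardiomyocyte markers were 2044 and 2053 with CVZ beside 2002 and 1842 with vehicle, 1 of the 9 was called with CVZ, and their part in the CVZ changes was not tested.

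Most of the 33 genes were measured closely enough to set narrow limits. The 95% interval of the CVZ response lay within 1.5-fold of no change for 29 genes, of the COR response for 30 and of the ALD response for 29. Among probe sets with a mean signal above 5 this held for 28, 29 and 28 of the 30 pathway genes, beside 79.8%, 84.8% and 89.6% of all 6497 such probe sets. The width of these intervals rests largely on a variance pooled across probe sets, with 3 residual degrees of freedom of 15.2 in all.

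**Figure D2:**
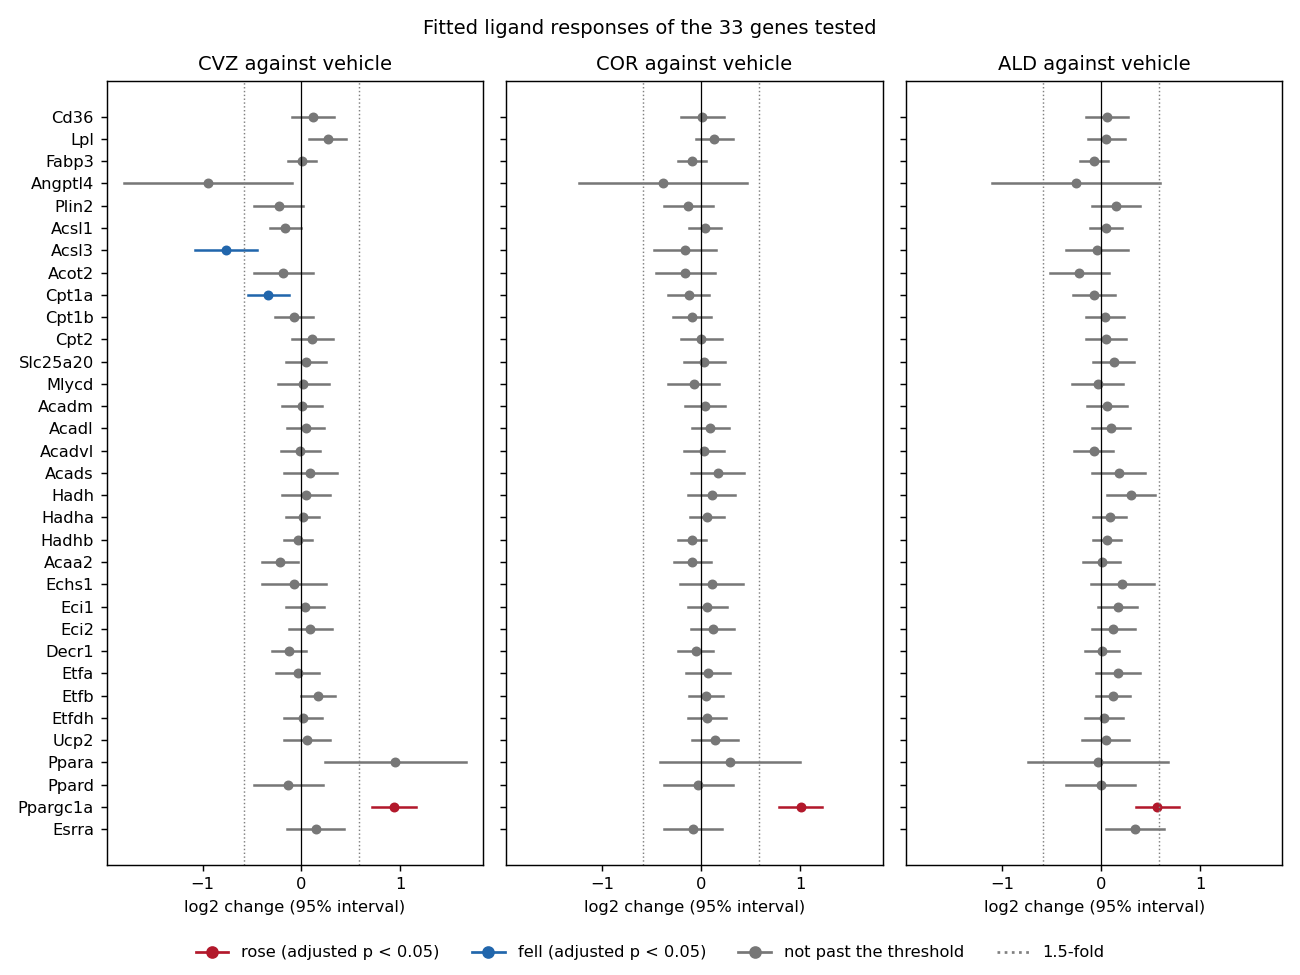
Fitted log2 change of each of the 33 genes tested with CVZ, COR and ALD against vehicle (points), with 95% intervals (lines) and dotted lines at 1.5-fold. Ppargc1a stands to the right in all 3 panels (0.93, 1.00 and 0.57), Acsl3 and Cpt1a stand to the left with CVZ (-0.76 and -0.34), and the wide intervals belong to Angptl4 and Ppara.

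The upstream sequences of the 3 genes that changed are given because they are the regulatory DNA next to the finding. Each is the 250 bases before the gene's start in RefSeq's annotation of the rat build GRCr8, plus strand, 5′ to 3′: Ppargc1a at chr14:63634058-63634307, Acsl3 at chr9:87563351-87563600 and Cpt1a at chr1:209995910-209996159. Capitals mark the one match to TGACGTCA, the cyclic AMP response element.
Ppargc1a: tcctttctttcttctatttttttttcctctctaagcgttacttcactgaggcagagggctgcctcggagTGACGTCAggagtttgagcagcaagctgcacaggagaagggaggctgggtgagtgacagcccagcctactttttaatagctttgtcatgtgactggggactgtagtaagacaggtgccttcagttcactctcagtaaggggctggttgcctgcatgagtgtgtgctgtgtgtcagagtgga
Acsl3: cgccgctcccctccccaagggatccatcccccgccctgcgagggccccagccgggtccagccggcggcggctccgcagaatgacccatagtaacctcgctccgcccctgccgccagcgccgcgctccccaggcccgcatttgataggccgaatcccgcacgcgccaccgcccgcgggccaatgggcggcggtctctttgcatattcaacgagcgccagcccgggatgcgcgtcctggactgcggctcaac
Cpt1a: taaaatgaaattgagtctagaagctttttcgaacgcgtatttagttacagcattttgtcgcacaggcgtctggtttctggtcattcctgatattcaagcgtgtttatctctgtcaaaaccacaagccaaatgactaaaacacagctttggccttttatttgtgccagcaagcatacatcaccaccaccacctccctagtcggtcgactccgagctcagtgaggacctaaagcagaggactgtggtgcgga
The capitals in the Ppargc1a sequence begin at position -181 counted from its start.

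Upstream windows of this kind were found for 29 of the 35 genes, and those of Ppard, Decr1, Lpl, Acaa2, Acadl and Cpt1b were not used here. The letters TGACGTCA, searched on both strands, were in the windows of Ppargc1a and Acadm and in 1.7% of all 27457 windows. TGTTCT, the unit that each partner of a glucocorticoid receptor pair contacts, was in those of Acot1, Acot2 and Mlycd and in 17.1% of all windows. An inverted pair of it with 3 bases between was in none of the 29 and in 0.00364% of all. AGGTCA, the unit bound by many nuclear receptors, was in the windows of Ucp3, Echs1, Eci1 and Acadvl and in 13.7% of all. As a direct repeat with 1 base between, the spacing used by the Ppar receptors, it was in none of the 29 and in 0.0546% of all. TCAAGGTCA, the site of oestrogen-related receptors such as Esrra, was in none of the 29 and in 0.368% of all. TCAAGGTCA contains AGGTCA, so those searches overlap. These matches describe letters in short windows only.

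Ppargc1a, the coactivator that drives mitochondrial and fatty acid oxidation genes, was the only regulator among the 33 genes that was called. It gave signals of 11.1 and 11.5 on the vehicle arrays of experiments 1 and 2, 20.8 and 22.5 with CVZ, 23.2 and 22.3 with COR, and 15.8 and 17.9 with ALD. Both arrays of each ligand were above both vehicle arrays, and both ALD arrays were below all CVZ and COR arrays. Group means were 11.3 ± 0.27 for vehicle, 21.7 ± 1.21 for CVZ, 22.7 ± 0.64 for COR and 16.8 ± 1.501 for ALD (SD, n = 2 each).

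Fitted with limma, Ppargc1a rose 1.91-fold with CVZ (log2 change 0.93 ± 0.10 SE, adjusted p = 1.4e-05). With COR it rose 2.01-fold (1.00 ± 0.10, adjusted p = 1.3e-05) and with ALD 1.48-fold (0.57 ± 0.10, adjusted p = 0.011). The sizes were close in the experiments taken singly, at 0.90 and 0.97 with CVZ, 1.06 and 0.95 with COR, and 0.50 and 0.63 with ALD. Its 2 dimmer probe sets were also called with each ligand, at 1.11 and 1.28 with CVZ, 1.01 and 1.11 with COR, and 0.71 and 0.87 with ALD. The ALD call was lost without the second vehicle array or the second ALD array. Without the experiment block the COR and ALD calls were lost and the CVZ call was not.

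**Figure D3:**
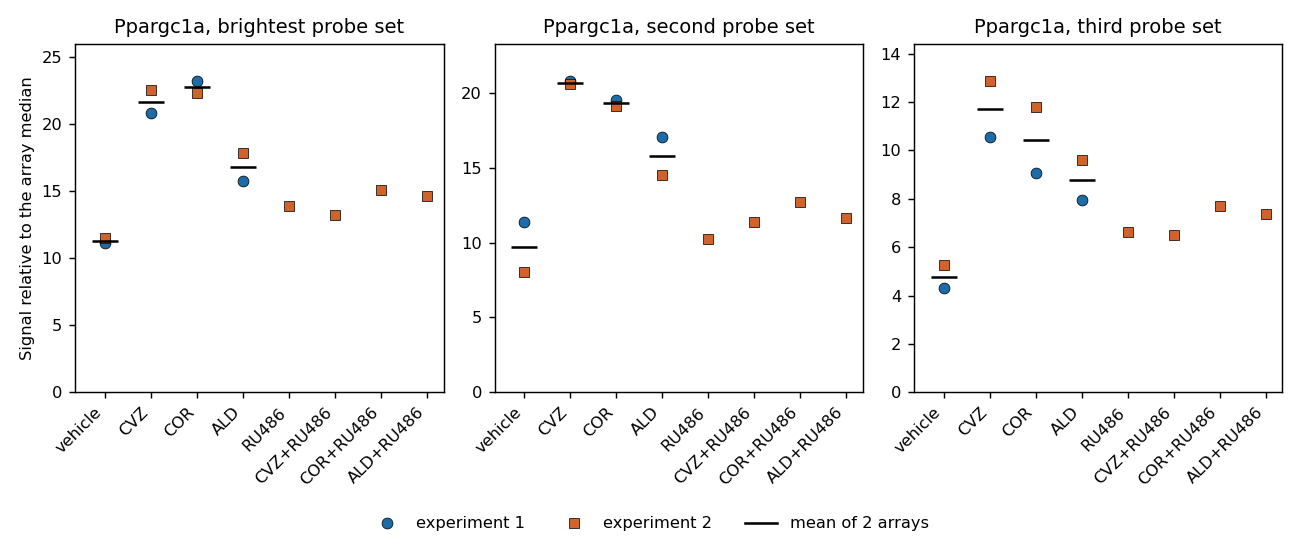
Signal of the 3 Ppargc1a probe sets, relative to the array median, on each array (circles, experiment 1; squares, experiment 2), with the mean of each group of 2 as a line. On the brightest probe set the vehicle arrays lie at 11.1 and 11.5, CVZ and COR between 20.8 and 23.2, ALD at 15.8 and 17.9, and the 4 RU486 arrays between 13.2 and 15.1.

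The other regulators among the 33 genes, Esrra, Ppard and Ppara, were not called with any ligand. Regulators outside these genes, some of which were called, are given further below. Esrra, which binds with PGC-1alpha at many mitochondrial genes, gave 5.75 and 6.58 on the vehicle arrays, 6.64 and 6.96 with CVZ, 4.89 and 6.84 with COR, and 7.27 and 8.39 with ALD. Both ALD arrays were above both vehicle arrays, and the fitted change of 0.34 ± 0.14 had an adjusted p of 0.43. Ppard, the widely expressed Ppar receptor, lay between 2.85 and 4.28 on the 12 arrays and differed by -0.13 (95% interval -0.48 to 0.22) between CVZ and vehicle. Ppara, the main Ppar receptor of heart and liver, was near the array median, where signals are noisy. It gave 0.56 and 0.98 with vehicle, 1.18 and 1.91 with CVZ, 0.88 and 0.97 with COR, and 0.58 and 0.91 with ALD. Both CVZ arrays of Ppara were above both vehicle arrays, and the fitted change of 0.95 (95% interval 0.24 to 1.66) did not pass the test (adjusted p = 0.11).

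Of the 3 activation and thioesterase genes tested, 1 fell with CVZ and 0 were called with COR or ALD on their brightest probe sets. Acsl3, an acyl-CoA synthetase of the endoplasmic reticulum and lipid droplets, gave 9.47 and 6.48 on the vehicle arrays of experiments 1 and 2. It gave 5.43 and 3.88 with CVZ, 9.51 and 5.11 with COR, and 8.63 and 6.72 with ALD. Both CVZ arrays were below both vehicle arrays, while COR and ALD arrays overlapped vehicle. The group means were 7.97 ± 2.11 for vehicle, 4.66 ± 1.09 for CVZ, 7.31 ± 3.11 for COR and 7.67 ± 1.35 for ALD (SD, n = 2 each).

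The SDs of Acsl3 are wide because experiment 2 was lower in every group, and the difference within each experiment was steadier. CVZ minus vehicle was -0.80 in experiment 1 and -0.73 in experiment 2 on the log2 scale. In the limma fit Acsl3 fell by 0.76 ± 0.15 on the log2 scale with CVZ (95% interval -1.08 to -0.45, adjusted p = 0.0031). The changes with COR and ALD were -0.17 (interval -0.48 to 0.15) and -0.04 (interval -0.36 to 0.28). The call with CVZ was lost without the experiment block and without the mean-variance trend.

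Acsl1, the main synthetase that feeds mitochondrial oxidation in heart, gave 100.1 and 81.4 with vehicle, 84.3 and 77.1 with CVZ, 102.5 and 83.7 with COR, and 99.8 and 87.5 with ALD. Its CVZ arrays overlapped the vehicle arrays. The fitted CVZ change was -0.16 ± 0.07 (adjusted p = 0.25), while a dimmer probe set of Acsl1 was called at -0.33 (adjusted p = 0.017), so the probe sets differ in call and not in sign. Acot2, a mitochondrial thioesterase that frees fatty acids from coenzyme A, gave 11.3 and 5.89 with vehicle, 8.89 and 5.80 with CVZ, 8.58 and 6.16 with COR, and 9.32 and 5.22 with ALD. Every experiment 2 array of Acot2 was below every experiment 1 array, and no ligand change passed the test. Acot1, the cytosolic thioesterase, lay between 0.021 and 0.46 on the 12 arrays and was not tested.

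The carnitine shuttle moves acyl groups into mitochondria, and Cpt1a encodes one form of its rate-controlling outer-membrane enzyme. Cpt1a gave 33.3 and 25.8 with vehicle, 24.1 and 22.4 with CVZ, 30.9 and 23.2 with COR, and 30.3 and 25.6 with ALD. The 2 CVZ arrays were below the 2 vehicle arrays. The second COR array, at 23.2, was also below both vehicle arrays and lay between the CVZ arrays. The second ALD array, at 25.6, was just below both vehicle arrays. Group means were 29.6 ± 5.33 for vehicle, 23.2 ± 1.17 for CVZ, 27.1 ± 5.42 for COR and 27.9 ± 3.30 for ALD (SD, n = 2 each).

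Cpt1a fell by 0.34 ± 0.10 on the log2 scale with CVZ, with a limma adjusted p of 0.047 and a 95% interval from -0.54 to -0.13. Within the experiments the difference was -0.47 and -0.20, and the dimmer probe set of the gene gave -0.40. The call stands at the edge of the threshold: it was lost in 10 of 18 alternative settings, among them leaving out either vehicle array, either CVZ array or either COR array.

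Cpt1b, the muscle form of the same enzyme, gave 62.4 and 66.2 with vehicle, 52.1 and 71.3 with CVZ, 52.7 and 68.4 with COR, and 57.7 and 75.8 with ALD. Its ligand arrays lay on both sides of the vehicle arrays, and the fitted CVZ change was -0.08 (interval -0.27 to 0.12). Slc25a20, the carnitine carrier of the inner membrane, gave 26.5 and 18.8 with vehicle, 25.4 and 21.0 with CVZ, 25.8 and 20.2 with COR, and 28.2 and 21.0 with ALD. Here the experiments stood apart and the treatments did not. Cpt2, which remakes acyl-CoA on the inner side, ranged from 17.6 to 23.5 on the 12 arrays. Mlycd, the decarboxylase that removes the malonyl-CoA that inhibits Cpt1, ranged from 10.6 to 15.1. Neither Cpt2 nor Mlycd passed the test with any ligand, and the intervals of all 5 shuttle genes were within 1.5-fold with each of CVZ, COR and ALD.

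**Figure D4:**
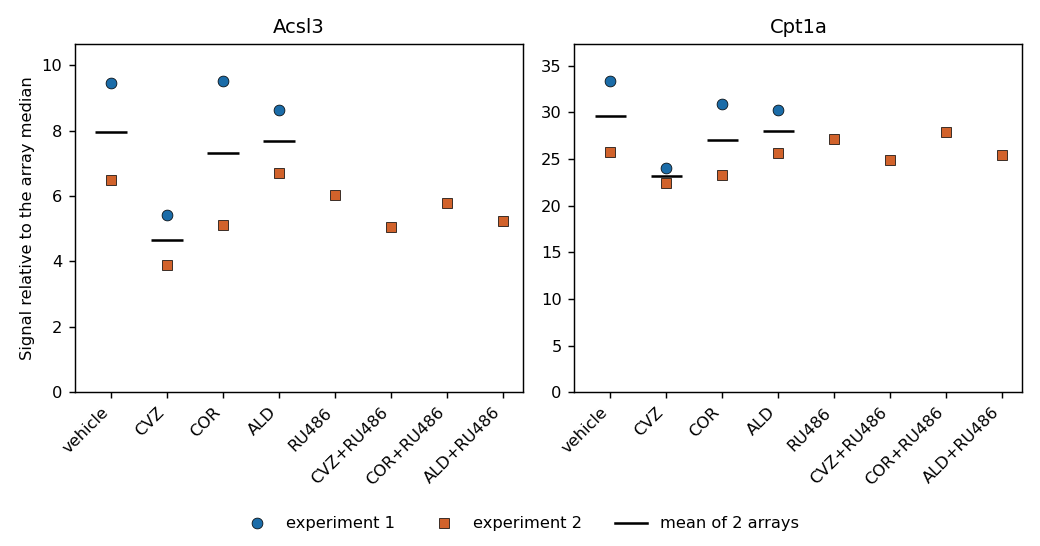
Signal of Acsl3 and Cpt1a, relative to the array median, on each array (circles, experiment 1; squares, experiment 2), with the mean of each group of 2 as a line. The CVZ arrays (5.43 and 3.88 for Acsl3, 24.1 and 22.4 for Cpt1a) lie below both vehicle arrays, and experiment 2 lies below experiment 1 in each of the 4 groups measured in both.

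None of the 12 enzyme genes of the oxidation spiral and none of the 3 electron transfer genes was called with CVZ, COR or ALD by limma. At an unadjusted p under 0.05 there was Acaa2 with CVZ and Hadh with ALD. Fitted changes of these 15 genes ran from -0.22 (Acaa2, the thiolase for medium and long chains) to 0.17 (Etfb) with CVZ. With COR they ran from -0.10 (Hadhb) to 0.17 (Acads, the short-chain dehydrogenase), and with ALD from -0.08 (Acadvl) to 0.30 (Hadh). The outermost bounds of the 95% intervals were -0.40 and 0.36 with CVZ, -0.28 and 0.44 with COR, and -0.28 and 0.54 with ALD. A change of 1.5-fold or more was therefore outside the interval of each of the 15 genes with each ligand.

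Hadhb, the thiolase subunit of the trifunctional protein, gave 148 and 117 with vehicle, 147 and 113 with CVZ, 138 and 109 with COR, and 156 and 120 with ALD. The experiment 1 arrays were all above the experiment 2 arrays, and within an experiment the 4 treatments were close together. Acadl, the long-chain acyl-CoA dehydrogenase, gave 75.9 and 65.0 with vehicle, 68.4 and 76.8 with CVZ, 73.9 and 75.7 with COR, and 76.8 and 73.8 with ALD. Acadl varied least of the 20 shuttle, oxidation and electron transfer genes, with a highest array 1.18 times the lowest. For 17 of these 20 genes that ratio was below 1.5 over all 12 arrays, and the largest was 1.52, for Hadh.

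Hadh, the hydroxyacyl-CoA dehydrogenase for shorter chains, was singled out after its values were seen. It gave 50.2 and 35.2 with vehicle, 43.8 and 43.1 with CVZ, 44.5 and 45.9 with COR, and 51.8 and 51.7 with ALD. The second vehicle array was the lowest of the 12. The ALD response was 0.05 in experiment 1 and 0.55 in experiment 2, the fitted value of 0.30 had an adjusted p of 0.39, and without the first vehicle array it was called. The other dehydrogenases Acadm and Acadvl, for medium and very long chains, ranged from 43.5 to 60.7 and from 25.04 to 34.1. Acads ranged from 6.80 to 9.52, and Hadha, the trifunctional subunit paired with Hadhb, from 55.6 to 70.4.

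Echs1, the enoyl-CoA hydratase for short chains, ranged from 8.44 to 12.8 and Acaa2 from 36.3 to 54.4. Eci1, Eci2 and Decr1, the auxiliary enzymes that let unsaturated fatty acids through the spiral, ranged from 35.9 to 52.2, from 20.3 to 25.7 and from 50.6 to 66.0. A dim second probe set of Eci1, of mean signal 0.93, gave 1.41 with CVZ where the bright one gave 0.04. On the dim one the vehicle arrays gave 1.22 and 0.15 and the CVZ arrays 1.38 and 1.31, so its change rests on the low second vehicle array. The probe sets of Eci1 differ in size of change and not in sign, with no call for either.

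Of the electron transfer genes, Etfb, a subunit of the flavoprotein, gave 87.0 and 62.9 with vehicle, 90.8 and 75.8 with CVZ, 83.3 and 69.9 with COR, and 86.7 and 74.5 with ALD. Etfa, its partner subunit, gave 50.5 and 36.3 with vehicle, 46.0 and 37.9 with CVZ, 46.6 and 43.2 with COR, and 48.1 and 48.3 with ALD. Within experiment 2 every ligand array of Etfb and Etfa was above vehicle, whereas within experiment 1 only the CVZ array of Etfb was. Etfdh, which passes the electrons on to ubiquinone, ranged from 28.01 to 40.01.

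On their brightest probe sets the uptake and binding genes were not called with any ligand. Fabp3, the heart fatty acid binding protein, gave 210 and 194 with vehicle, 200.3 and 205 with CVZ, 198 and 182 with COR, and 198 and 187 with ALD. The fitted CVZ change of Fabp3 was 0.00 ± 0.07, with a 95% interval from -0.14 to 0.15. Cd36, the fatty acid translocase, gave 65.7 and 34.4 with vehicle, 60.2 and 44.3 with CVZ, 60.1 and 38.2 with COR, and 61.5 and 39.8 with ALD. All 4 experiment 1 arrays of Cd36 were above all 8 experiment 2 arrays, and the CVZ response was -0.13 in experiment 1 and 0.37 in experiment 2.

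Lpl, the lipase that frees fatty acids from circulating triglyceride, had the smallest adjusted p of this role. It gave 31.5 and 29.5 with vehicle, 36.1 and 37.3 with CVZ, 34.0 and 32.9 with COR, and 31.0 and 32.3 with ALD. Both CVZ arrays were above both vehicle arrays, and the limma change of 0.27 ± 0.09 had an adjusted p of 0.079. Plin2, a coat protein of lipid droplets, gave 22.5 and 14.6 with vehicle, 16.9 and 14.0 with CVZ, 18.0 and 15.2 with COR, and 21.3 and 19.0 with ALD. Its CVZ arrays overlapped vehicle, with a change of -0.23 (adjusted p = 0.31), while its second probe set was called at -0.45 (adjusted p = 0.014). Angptl4, a secreted inhibitor of Lpl, lay near the array median, at 1.13 and 0.98 with vehicle and at 0.36 and 0.72 with CVZ. The CVZ change of Angptl4 was -0.95 with a 95% interval from -1.80 to -0.10, and it did not pass the test (adjusted p = 0.20).

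Of the uncoupling proteins, carriers of the inner mitochondrial membrane, Ucp2 gave 11.5 and 11.4 with vehicle, 11.9 and 11.9 with CVZ, 12.2 and 13.0 with COR, and 11.2 and 12.5 with ALD. Ucp2 changed by 0.06 with CVZ (interval -0.18 to 0.29). Ucp3, the muscle form, was below the array median on all 12 arrays, from 0.28 to 0.93.

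Set directly against each other, the ligands differed in 1 of the 33 genes. Acsl3 was higher with ALD than with CVZ by 0.72 ± 0.15 on the log2 scale (limma adjusted p = 0.0086), where 4.25% of all probe sets were called. Between COR and CVZ the Acsl3 difference was 0.60 (interval 0.28 to 0.91, adjusted p = 0.081). The ALD call for Acsl3 was lost without the first CVZ array or the second ALD array. Ppargc1a was lower with ALD than with CVZ by 0.37 (interval -0.59 to -0.15, adjusted p = 0.062), and lower with ALD than with COR by 0.44 (interval -0.66 to -0.22, adjusted p = 0.14). Between COR and CVZ the difference in Ppargc1a was 0.07 (interval -0.15 to 0.29). Trimmed-mean scaling changed the ALD against CVZ count from 1 higher and 0 lower to 2 higher and 1 lower, with Plin2 and Ppargc1a added.

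No pathway gene was called by limma between COR and CVZ or between ALD and COR, where 0.966% and 0.295% of all probe sets were called. At an unadjusted p under 0.05 there were 2 and 4 genes, beside 1793 and 1155 of all 18625 probe sets. The 4 between ALD and COR were Ppargc1a, Plin2, Hadhb and Esrra.

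With RU486 given first, Ppargc1a was lower under the ligands, and no other gene of the 33 was called on its brightest probe set. The second brightest probe set of Acot2 was called higher with RU486 than without it under the ligands. Ppargc1a gave 13.9 with RU486 alone, 13.2 with CVZ and RU486, 15.1 with COR and RU486 and 14.6 with ALD and RU486 (n = 1 each). On this brightest probe set these 4 arrays were above both vehicle arrays and below all 6 ligand arrays. On the second brightest, RU486 alone (10.25) and CVZ with RU486 (11.35) lay between the vehicle arrays of experiment 1 (11.37) and experiment 2 (8.05). Within experiment 2 the drop on adding RU486 was -0.77 for CVZ, -0.56 for COR and -0.29 for ALD on the log2 scale. Fitted over the 3 ligands, Ppargc1a fell by 0.53 ± 0.08 on the log2 scale (limma adjusted p = 0.00082), the only one of 33 genes called where 4.87% of all probe sets were. That fit also draws on experiment 1 arrays for the ligands, and takes the lone RU486 arrays to vary like the others. The Ppargc1a call was lost without the experiment block and without the mean-variance trend.

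The mean ligand response of Ppargc1a was smaller with RU486 than without it by 0.80 (interaction -0.80 ± 0.15, limma adjusted p = 0.011), again the only gene of the 33 called where 1.09% of all probe sets were. Its dimmest probe set gave -0.98 (adjusted p = 0.0075), and its second brightest gave -0.73 (adjusted p = 0.067) and did not pass. The interaction was also not called without the array of CVZ with RU486. On top of RU486 the ligands changed Ppargc1a by 0.04 (interval -0.22 to 0.29). In that comparison no pathway gene was called and 0% of all probe sets were, with 0 of the 33 genes and 462 of all 18625 probe sets at an unadjusted p under 0.05.

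RU486 alone changed none of the 33 genes against vehicle by limma, where 0.129% of all probe sets were called, and 2 genes had an unadjusted p under 0.05, beside 1257 of all 18625 probe sets. One was Hadh, at 53.4 on the RU486 array beside 50.2 and 35.2 with vehicle, with a change of 0.41 and an adjusted p of 0.52. The other was Acsl1, at 96.1. Ppargc1a was 0.26 ± 0.13 above vehicle with RU486 alone (adjusted p = 0.77). Fabp3 gave 177 with RU486 alone and 167, 173 and 162 with CVZ, COR and ALD on top of it, all below the 8 arrays without RU486. The fitted difference of Fabp3 between ligand with and without RU486 was -0.19 ± 0.05 (adjusted p = 0.056). For Acsl3 the values with RU486 were 6.04 alone and 5.06, 5.80 and 5.24 with CVZ, COR and ALD. Cpt1a gave 27.1 alone and 24.8, 27.9 and 25.4. Quantile normalisation changed the count for ligand with RU486 against ligand from 0 higher and 1 lower to 2 higher and 1 lower, adding Acsl1 and Hadhb.

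Other features of the RU486 arrays moved with this comparison. Their signals had inferred medians of 35.4 to 37.7 before the authors' division by the array median, beside 21.1 to 33.7 on the 8 arrays without RU486. The labels do not give these medians, which were worked out from the spacing of the deposited values. The summed signal of the 9 cardiomyocyte markers was 1652 to 1679 with ligand and RU486, 1823 with RU486 alone, 1845 to 2053 with ligand alone and 1842 and 2002 with vehicle. Of those 9 markers 4 were called between ligand with and without RU486. Endothelial markers, 6 of 7 on the array, summed to 14.9 and 9.40 with vehicle, 14.5 to 28.9 with ligand, 9.06 with RU486 alone and 10.1 to 11.7 with ligand and RU486. Among them Kdr was called with CVZ, COR, ALD and between ligand with and without RU486, and the other 4 tested were not. The part of these features in the Ppargc1a and Fabp3 values was not tested.

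The experiments themselves differed more than most treatments did. Of the 33 genes, 18 were lower in experiment 2 than in experiment 1 in all 4 matched pairs of arrays (vehicle, CVZ, COR and ALD), where 34.6% of all probe sets tested were. Another 5 were higher in all 4 pairs, where 15.6% of all were, and 10 had mixed signs. The median difference, experiment 2 minus experiment 1, was -0.21 on the log2 scale for the 33 genes and -0.10 over all probe sets. The largest falls were in Acot2 (-0.71), Cd36 (-0.66) and Acsl3 (-0.57).

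Of the 20 shuttle, oxidation and electron transfer genes, 13 were lower in all 4 pairs and 2 were higher. The 5 genes higher in experiment 2 in all pairs were Cpt1b, Acads, Ppara, Ppard and Esrra. Cpt1a was lower and Cpt1b higher in experiment 2 in each pair, so the liver-type and muscle-type forms of the enzyme went opposite ways between the experiments. Ppargc1a was among the 10 with mixed signs.

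**Figure D5:**
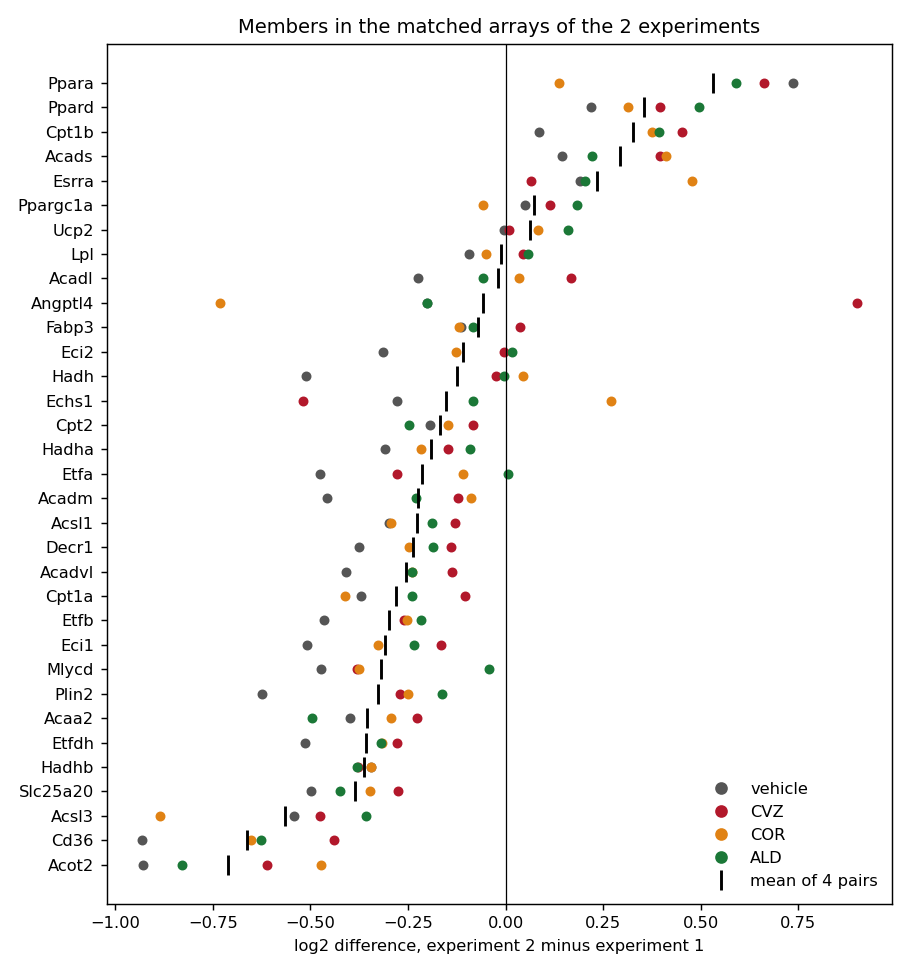
Log2 difference between experiment 2 and experiment 1 for each of the 33 genes tested, in the 4 matched pairs of arrays (coloured points) and as their mean (black bars). Of the genes, 18 lie left of 0 in all 4 pairs, from Acot2 (-0.71 on average) and Cd36 (-0.66) on, and 5 lie right of it, Cpt1b, Acads, Ppara, Ppard and Esrra.

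Markers of other cells moved with the experiments as well. The summed signal of 8 fibroblast markers was 360 to 441 in experiment 1 and 174 to 199 in experiment 2, and that of 5 smooth muscle markers 44.1 to 50.8 and 24.6 to 35.8. The 2 erythroid markers on the array summed to 85.0 to 124 in experiment 1 and 27.8 to 37.6 in experiment 2. Cardiomyocyte markers overlapped, at 1845 to 2044 and 1652 to 2053. None of the 8 fibroblast markers was called with CVZ, COR, ALD or RU486 on top of the ligands. The part of these cells in the experiment differences of Cd36, Acot2 and the rest was not tested.

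Genes next to this pathway were grouped in 5 lists, chosen with earlier results of these data known. The lists held 31 other genes of carnitine and oxidation, 17 of uptake, binding and activation, 25 of triglyceride storage and lipolysis, 15 of fatty acid synthesis and 20 further regulators. In that order their median log2 changes with CVZ were 0.02, -0.0037, 0.01, -0.18 and -0.28, beside 0.01 over all probe sets tested. The counts below stand beside 7.96%, 3.39% and 0.95% of all probe sets called with CVZ, COR and ALD, and differences between the lists were not tested. Of 23 other carnitine and oxidation genes tested, 1 rose with CVZ, 1 with COR and 0 with ALD. That gene was Abcd3, a peroxisomal importer of fatty acids, at 0.74 ± 0.12 with CVZ (limma adjusted p = 0.00089) and 0.60 with COR. Of 14 other genes of uptake, binding and activation, 2 rose with CVZ and 0 with COR or ALD. They were Lmf1, a maturation factor of Lpl, at 0.69, and Fabp4, the fat cell binding protein, at 2.09 from signals of 0.33 and 0.34 with vehicle to 2.12 and 1.28 with CVZ. The 7 fat cell markers on the array, Fabp4 among them, summed to 1.25 to 3.84, and their part in the Fabp4 value was not tested.

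Of 23 triglyceride turnover genes tested, 5 rose and 2 fell with CVZ, 4 rose and 1 fell with COR, and 2 rose and 1 fell with ALD. Dgat2, which makes triglyceride, rose by 1.98 with CVZ, and Plin4, a droplet coat protein, by 1.80. Pnpla2, the lipase that starts triglyceride breakdown, rose by 1.49, and Lpin1, a phosphatidate phosphatase, by 1.26. Cidea, the droplet protein also listed as a brown fat marker, rose by 0.87. G0s2, an inhibitor of the Pnpla2 lipase, fell by 1.16 on the log2 scale, and Mgll, the monoglyceride lipase, by 0.79. Of 14 fatty acid synthesis genes, Srebf1 rose by 1.52 and Elovl6, an elongase, fell by 0.79 with CVZ, whereas Srebf1 alone rose with COR and with ALD.

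Of 17 other regulators tested, 2 rose and 4 fell with CVZ. Klf15, a transcription factor of lipid and amino acid use, rose by 3.21 and Pdk4, the kinase that shuts off pyruvate oxidation, by 2.58, and these 2 also rose with COR, at 2.62 and 1.502. With ALD, Klf15 rose by 1.77 and the other 16 were not called. The 4 that fell with CVZ were Rxrg at -0.79, Ppargc1b, the sister coactivator of Ppargc1a, at -0.65, the orphan receptor Esrrg at -0.39 and Prkaa2, a catalytic subunit of AMP kinase, at -0.35. A second probe set of Rxrg gave 0.31, so its direction depends on the probe set. The CVZ calls of Lmf1, Mgll, Ppargc1b, Esrrg and Prkaa2 were each lost on leaving out any of several single arrays, that of Rxrg without the second CVZ array and that of Fabp4 without the first CVZ array. Without the experiment block the CVZ counts were 1, 0, 3, 1 and 2 for uptake, oxidation, triglyceride, synthesis and regulators.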

How the data were processed

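Biotin-labelled RNA was read on 12 Affymetrix rat arrays of 31099 probe sets. The deposited values are linear intensity, namely MAS5 signals per the submitters' processing notes. Tested on the file, the values of every array have a median of 1, so the authors had divided each array by its median. Arrays have no depth, and their number limits the precision.

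After 57 control probe sets were set aside, log2 was taken of the signal plus a pseudocount of 0.0696 (the 10th percentile), so changes of low genes are understated. The 18625 of 31042 probe sets whose mean log2 value passed the 40th percentile (10082 named genes) were fitted with limma 3.58.1 in R 4.3.3 (lmFit, eBayes with a mean-variance trend) in 8 groups with the experiment as a block. The adjusted p-values cover all of them, in each of 11 comparisons. Genes were assigned by the array annotation, updated to RefSeq's rat symbols: 20826 had 1 gene, 436 several and 9780 none. Of the 35 genes, 11 had several probe sets, and probe sets shared with another gene were not used. Other tools were Python 3.11.15, pandas 2.3.3 and matplotlib 3.10.9. The fitting code was also run on simulated data with the same noise for every probe set, which does not test the calls given here.

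The labels give the experiment of each array. After removal of group means the arrays of an experiment deviated together (correlations 0.512 to 0.567), and replicates correlated at 0.946 to 0.950 with 0 identical values. The 35 genes, the neighbouring lists and the markers were chosen with earlier results of these data known. Values of every array are given for each gene called in any comparison and for up to 2 others of highest mean signal in each role, and for Hadh, Lpl, Plin2, Ppara and Angptl4 after their values were seen. Alternatives were the pseudocount, filter, scaling, block, trend, probe set and leaving out each array.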

Additional observations from a re-analysis of the deposited data

Results flagged for a closer look

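An interaction term asked whether the mean ligand response differed between cells with and without RU486. Fitted with limma and adjusted over all probe sets tested, it was called in 1.09% of them. Among the 33 genes tested and the neighbouring lists, all chosen with earlier results of these data known, it was called in 8 genes. Among the fatty acid uptake and oxidation genes this was Ppargc1a alone, with an interaction of -0.80 on the log2 scale (adjusted p = 0.011): the 6 ligand arrays without RU486 lay between 15.8 and 23.2, and the 4 arrays with RU486 between 13.2 and 15.1. Among the neighbouring genes it was -2.13 for Klf15 (2.3e-06), -1.29 for Dgat2 (0.014), -1.20 for Lmf1 (0.015), -1.15 for Pdk4 (0.012), -0.998 for Pnpla2 (0.014), -0.94 for Srebf1 (0.012) and -0.79 for Lpin1 (0.016), with the adjusted p of each in parentheses. The interaction also holds the difference that RU486 made without ligand, which was 0.80 for Klf15 (adjusted p = 0.029), 0.96 for Lmf1 (0.13), 0.51 for Pdk4 (0.58), 0.32 for Pnpla2 (0.79), 0.26 for Ppargc1a (0.77), 0.22 for Dgat2 (0.93), 0.16 for Lpin1 (0.92) and -0.51 for Srebf1 (0.40), of which only that of Klf15 passed the test. The RU486 arrays were single and came from experiment 2 only.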

How the results depend on the processing

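Over all comparisons, 170 of 208 recomputed counts of called pathway genes equalled the reported count or stayed within 1.5 times it, and 38 did not. The 170 include counts of 0 that stayed 0, and a like count need not be of the same genes. Without the replicate block (the experiment left out of the model) the count was 1 for CVZ and 0 for COR, ALD, the mean of the 3 ligands, ALD against CVZ, ligand plus RU486 against ligand, and the interaction. Without the mean-variance trend it was 1 for CVZ and 0 for ALD, ALD against CVZ, ligand plus RU486 against ligand, and the interaction. Quantile normalisation gave 6 for CVZ, 2 for the mean of the 3 ligands, 3 for ALD against CVZ and 3 for ligand plus RU486 against ligand, and trimmed-mean scaling gave 3 for ALD against CVZ. Over the comparisons, the median log2 change of all probe sets ran from -0.039 to 0.047 in the main fit. It ran from -0.032 to 0.027 under quantile normalisation and from -0.053 to 0.038 under trimmed-mean scaling. The filter at the 60th percentile gave 1 for COR against CVZ, 2 for ALD against CVZ and 2 for ligand plus RU486 against ligand, and the pseudocount at the 25th percentile gave 2 for the last of these. The mean of a gene's probe sets gave 2 for ALD against CVZ. The second brightest probe set gave 0 there, 2 for ligand plus RU486 against ligand and 0 for the interaction. Leaving out each array in turn gave 2 to 3 for CVZ, 0 to 2 for ALD, 1 to 2 for the mean of the 3 ligands, 0 to 3 for ALD against CVZ, 0 to 1 for RU486, 1 to 2 for ligand plus RU486 against ligand, and 0 to 2 for the interaction. The cause of these moves was not tested.

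Of the 9 calls of pathway genes, that of Ppargc1a with CVZ held in all 18 alternatives, 8 were lost without the block, 6 without the trend, 4 on leaving out an array, 1 under another filter and 0 under another scaling or pseudocount. Under the mean of the 3 ligands Hadh turned sign without the second vehicle array, with values of -0.11 to 0.41 over the arrays left out, and signs turned, without the block, for Acot2 (-0.047) and Hadhb (-0.14) in ligand plus RU486 against ligand. Rxrg turned to 0.31 with CVZ under its second probe set, and in ALD against CVZ to -0.98 under that probe set and -0.19 under the mean of its probe sets. Of 90 calls in the neighbouring lists, 77 were lost without the block, 63 without the trend and 50 on leaving out an array, and 12 held in all alternatives. Values near the array median, as for Angptl4 and Ppara, limit what these arrays can show.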
